A study of Mus musculus with 12 samples.

Results

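AP-1 is a family of dimeric transcription factors built from Fos and Jun proteins, and its genes are among the immediate early genes, which cells switch on within minutes of a stimulus without making new protein. Their transcripts are usually short lived, and in macrophages lipopolysaccharide (LPS), a bacterial cell wall component sensed by Toll-like receptor 4, induces many of them quickly through MAP kinases, serum response factor and NF-kB. The proteins in turn act on cytokine, growth and survival genes. Here 10 such genes were followed: Fos, Fosb and Fosl2, which encode Fos partners, Jun, Junb and Jund, which encode Jun partners, Egr1 and Egr2, which encode zinc finger factors, and Ier2 and Ier3, which encode small immediate early proteins. They were taken by symbol from 24562 genes, each gene being represented by its RefSeq transcript with the highest mean read count over all libraries, and all 10 symbols were found.

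RNA had been sequenced from peritoneal macrophages of female mice in 4 groups of 3 libraries: HFD with LPS for 24 h, HFD at 0 h of LPS, chow with LPS for 24 h, and chow at 0 h of LPS, where HFD is a high fat diet. The series title places the study in hypercholesterolemia and the pentose phosphate pathway, and the labels give no strain, age, LPS dose or length of diet. Separate animals are not stated for the 3 libraries of a group. Each p-value thus reflects the spread between these libraries only, and that spread may be technical. Nor is it stated whether the 0 h and 24 h libraries of a diet share animals, and the main test treats them as unpaired. A control of 24 h with no LPS is not among the groups, so LPS and elapsed time cannot be told apart, and a 24 h sample shows none of the first hours in which these genes usually peak. In such bulk samples fewer cells of a type and less RNA per cell cannot be told apart either.

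Library totals lay between 2360244 counts, in the third HFD 0 h library, and 20688308 counts, and the next lowest total was 9135057. Levels are given as CPM, counts scaled to a fixed library total with TMM factors. Before TMM scaling, a floor of 3 counts equals 1.27 CPM in the shallowest library and 0.145 CPM in the deepest, which covers counting error only. All 8 macrophage markers were detected, with summed levels of 9537 to 11948 CPM in HFD 24 h, 13840 to 15498 in HFD 0 h, 9149 to 10426 in chow 24 h and 14084 to 15373 in chow 0 h. Lyz2 carried much of these sums, with means of 4858 CPM at 24 h against 9914 at 0 h in HFD, and 4477 against 9831 in chow. Adgre1 went the other way, at 764 against 257 CPM in HFD and 698 against 391 in chow. By the test used below, 2 of the 8 markers rose and 1 fell at 24 h in each diet. Of all genes 24.6% were called in HFD and 26.6% in chow. B cell markers summed to at most 19.6 CPM and T and NK cell markers to at most 3.88 CPM in any library. Neutrophil markers summed to 76.0 to 126 CPM, nearly all from Csf3r and S100a8, while S100a9, Ly6g and Mpo reached at most 0.45 CPM. S100a8 averaged 24.2 CPM at 24 h against 12.3 at 0 h in HFD, and 34.3 against 8.99 in chow. Platelet markers summed to 32.4 to 134 CPM, nearly all from Pf4. Of 8 markers of mesothelial and stromal cells, the stromal genes Col1a1, Col1a2, Col3a1 and Dcn carried nearly all of a sum of 678 to 2991 CPM, while the mesothelial markers Upk3b, Msln and Krt19 and the stromal marker Lum reached at most 4.05 CPM in any library. HFD 0 h replicate 3 stood apart on the second principal component. Counts of chow 24 h replicate 3 lay far from those of the other libraries of its group (chi-square per degree of freedom 69.3 and 62.0). Results that rest on these 2 libraries are given with and without them. The HFD 24 h libraries also lay far from each other by that measure (37.6 to 59.2) and were not set apart. All 6 LPS response genes checked (Tnf, Il1b, Il6, Nos2, Acod1 and Cxcl10) rose at 24 h in both diets.

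Ier3 encodes a stress-responsive protein that modulates ERK signalling and cell survival, Egr2 a zinc finger factor found in resting and alternatively activated macrophages, and Jun encodes c-Jun, a strong activator within AP-1. These 3 genes passed the test in the same direction in both diets. The 250 bases before each RefSeq transcription start on GRCm38.p6 are therefore shown, with matches to searched motifs in capitals.
Ier3 (chr17:35821463-35821712, plus strand): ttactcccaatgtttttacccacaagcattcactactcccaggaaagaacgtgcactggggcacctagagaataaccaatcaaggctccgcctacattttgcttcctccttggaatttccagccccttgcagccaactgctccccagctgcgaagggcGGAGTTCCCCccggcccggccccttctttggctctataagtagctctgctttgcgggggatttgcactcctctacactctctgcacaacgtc
Egr2 (chr10:67537619-67537868, plus strand): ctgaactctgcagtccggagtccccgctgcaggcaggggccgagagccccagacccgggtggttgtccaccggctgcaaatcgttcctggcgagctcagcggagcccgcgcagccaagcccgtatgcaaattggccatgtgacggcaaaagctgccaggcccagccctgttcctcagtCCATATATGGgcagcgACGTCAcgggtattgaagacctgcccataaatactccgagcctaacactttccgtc
Jun (chr4:95052223-95052472, minus strand): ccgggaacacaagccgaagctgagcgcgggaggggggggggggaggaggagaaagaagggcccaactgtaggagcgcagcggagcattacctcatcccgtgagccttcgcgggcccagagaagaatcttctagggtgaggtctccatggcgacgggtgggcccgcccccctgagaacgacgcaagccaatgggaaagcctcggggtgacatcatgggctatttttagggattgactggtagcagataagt
The Ier3 window holds a match to the NF-kB consensus. In the Egr2 window a CArG box, the core that serum response factor binds, is followed by a CRE core. The Jun window holds no exact match to any of the motifs searched.

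Such windows were searched, on both strands, for 8 of the 10 genes. Egr1 was left out of this search, so its window was not examined, and no window was found for Ier2. The RefSeq start used for the window of Jund lies 1210 bases, and that for Fosl2 671 bases, from the start of the GENCODE transcript used below for length and GC content, and this distance was at most 30 bases for the other 6 genes. The AP-1 consensus TGANTCA was present in 0 of 8 member windows, against 6.749% of all 32851 windows of the same length. The CRE core TGACGT was present in 2 of 8 (Fos and Egr2), against 6.469% of all windows. A CArG box was present in 1 of 8 (Egr2), against 1.467%. The EGR consensus GCGNGGGCG was present in 2 of 8 (Fosb and Fosl2), against 4.697%, and the TATA box TATAAA in 1 of 8 (Fos), against 12.368%. The NF-kB consensus was present in 4 of 8 windows (Fos, Fosb, Fosl2 and Ier3), against 3.899% of all windows. These matches describe the letters of the windows and do not show binding. Only exact matches were counted, so sites that vary from a pattern or lie outside the windows would be missed.

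At 24 h of LPS some members were higher and others lower than at 0 h. Ier3 was 4.39-fold higher at 24 h than at 0 h in HFD and 4.91-fold higher in chow, Egr2 fell to 0.532 of its 0 h level in HFD and to 0.454 in chow, and Jun fell to 0.683 in HFD and to 0.746 in chow. Fos passed the test in HFD (1.41-fold higher), and Fosl2 (1.43-fold higher) and Egr1 (1.67-fold higher) passed in chow. Junb, Jund and Ier2 passed in neither diet. In HFD 4 of the 9 tested members passed, 2 in each direction, and 24.6% of all 12641 genes passed there (12.7% higher and 12% lower). In chow 5 of 9 passed, 3 higher and 2 lower, against 26.6% of all genes (13.7% higher and 12.9% lower). Groups without overlap between 24 h and 0 h were found for 4 of the 9 in HFD, 2 above and 2 below, against 35.4% of all genes (18.2% above and 17.2% below). In chow 5 of the 9 did not overlap, 3 above and 2 below, against 45.5% of all genes (22.5% above and 22.9% below). These shares of 9 genes are given as a description. The median log2 fold change of the 9 members was -0.08 in HFD and 0.23 in chow, against -0.00 and 0.00 over all genes tested.

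**Figure D1:**
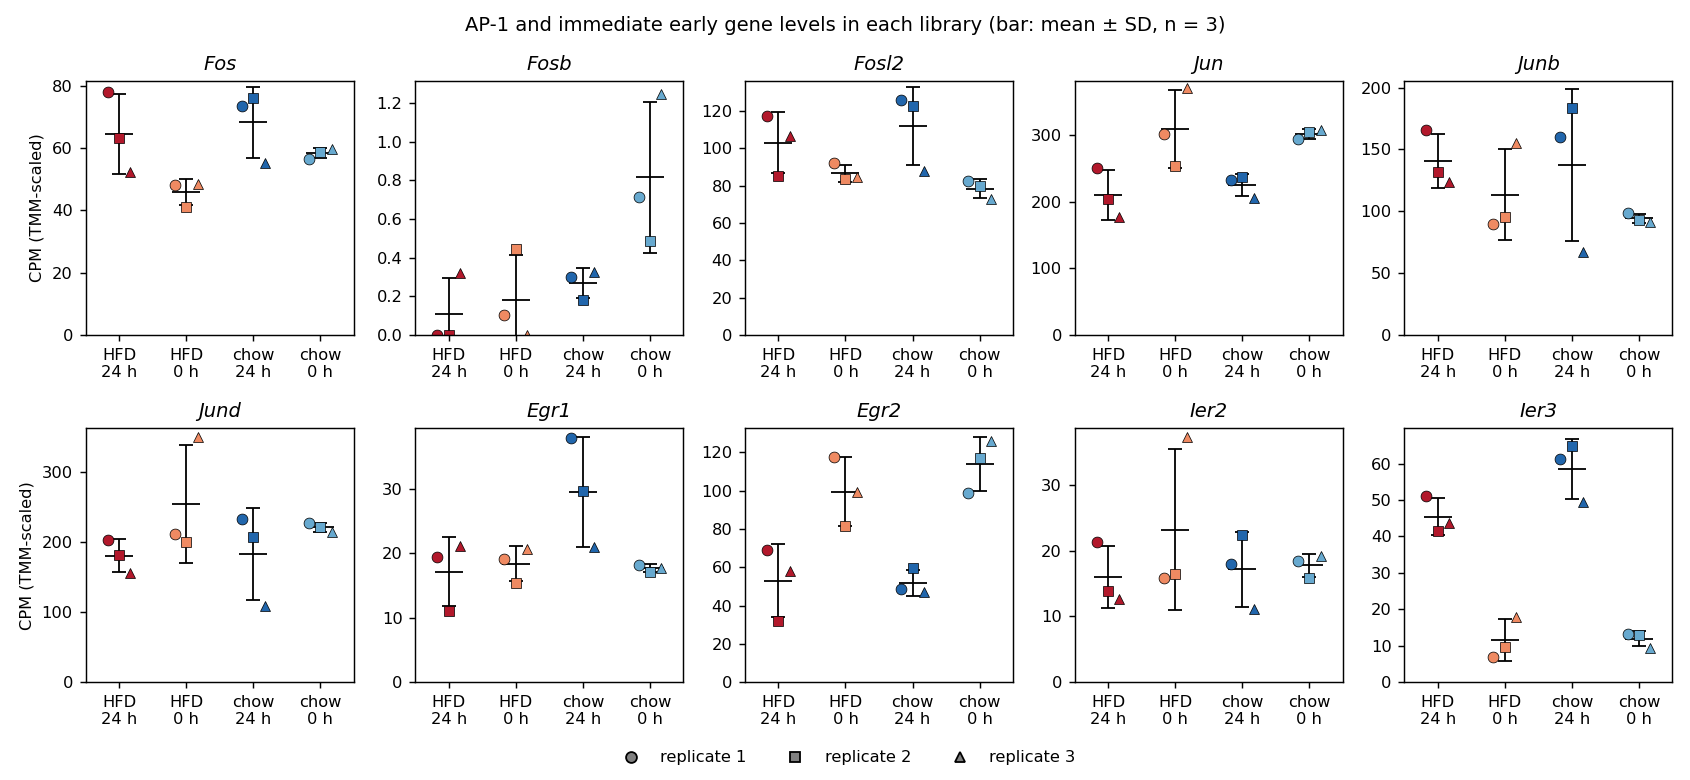
Levels of the 10 genes in CPM with TMM scaling (y axis, from 0, a scale for each gene) in the 4 groups (x axis); points are libraries, with shapes for replicates 1 to 3, and bars the mean ± SD (n = 3, cut off at 0 for Fosb). Ier3 is high in all 6 libraries at 24 h, Egr2 is low in them, and triangles mark how far replicate 3 of HFD 0 h and of chow 24 h lies from its group in Junb, Jund and Ier2.

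Positions given with each gene here and below span the whole gene on GRCm38.p6, and may be wider than the transcript counted. Ier3 (NM_133662, chr17:35821713-35822911) showed the largest change among the members. It measured 51.2, 41.4 and 43.8 CPM in HFD 24 h, against 6.97, 9.80 and 17.98 CPM in HFD 0 h. Chow libraries had 61.4, 64.9 and 49.3 CPM at 24 h, against 13.2, 13.1 and 9.48 CPM at 0 h. Every library at 24 h thus lay above every library at 0 h in both diets, and the highest value at 0 h came from the shallow HFD replicate 3, where 17.98 CPM rest on 40 counts. The log2 fold change was 2.13 ± 0.25 (SE) in HFD (adjusted p = 5.07e-06) and 2.30 ± 0.23 in chow (adjusted p = 7.98e-07), by edgeR's quasi-likelihood test with Benjamini-Hochberg adjustment over all tested genes, as for every adjusted p below. In size these changes exceeded those of 95.2% of all genes tested in HFD and 96.3% in chow.

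Egr2 (NM_010118, which starts at base 67537869 within the gene span chr10:67534469-67542188) was lower at 24 h in both diets. It measured 69.3, 32.03 and 58.0 CPM in HFD 24 h, against 118, 81.6 and 99.4 CPM in HFD 0 h. Its chow values were 48.4, 59.8 and 47.2 CPM at 24 h, against 98.9, 117 and 126 CPM at 0 h. The groups did not overlap in either diet, and the lowest of all 12 values was HFD 24 h replicate 2. On the log2 scale the change was -0.91 ± 0.22 in HFD (adjusted p = 0.00607) and -1.14 ± 0.22 in chow (adjusted p = 0.000942). Egr2 and Ier3 passed in both diets under every alternative that was run.

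Jun (NM_010591, chr4:95049036-95052222) was also lower at 24 h. It measured 250.6, 203 and 176 CPM in HFD 24 h, against 302, 254 and 370 CPM in HFD 0 h. In the chow libraries it stood at 232, 237 and 205 CPM at 24 h, against 293, 303 and 307 CPM at 0 h. The groups did not overlap, although in HFD the highest library at 24 h (250.6 CPM) lay close to the lowest at 0 h (253.6 CPM). Its log2 fold change was -0.55 ± 0.15 in HFD (adjusted p = 0.0129) and -0.42 ± 0.15 in chow (adjusted p = 0.0488). The chow call stood close to the threshold: it was lost with median-ratio size factors (adjusted p = 0.0561), with no filter (0.0649), with isoforms summed (0.0588), when any 1 of the 6 chow libraries was left out (0.0859 to 0.146), and without HFD 24 h replicate 2 (0.0705) or HFD 0 h replicate 1 (0.0639). In HFD the call was lost when the third 0 h library (adjusted p = 0.0594), the second 24 h library (0.0502) or the third 24 h library (0.0828) was left out. An antisense gene, Junos, overlaps Jun by 232 bases on the other strand, and the strand setting of the counting is unknown here, so reads of the pair cannot be told apart.

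Fos (NM_010234, chr12:85473890-85477274) encodes c-Fos, the prototype partner of Jun. It measured 77.9, 63.2 and 52.4 CPM in HFD 24 h, against 48.1, 41.1 and 48.6 CPM in HFD 0 h. Values in chow were 73.5, 76.1 and 55.3 CPM at 24 h, against 56.6, 58.7 and 59.7 CPM at 0 h. The HFD groups did not overlap, while in chow the third library at 24 h lay below all 3 libraries at 0 h. The fitted log2 fold change was 0.49 ± 0.16 in HFD (adjusted p = 0.0354) and 0.23 ± 0.16 in chow (adjusted p = 0.339). The HFD call was lost with upper-quartile scaling (adjusted p = 0.0738), with limma-voom (0.0514), when only the HFD libraries were fitted (0.0870), and when any of 5 single libraries was left out (0.0506 to 0.123): HFD 24 h replicates 1 and 2, HFD 0 h replicates 1 and 2, and chow 0 h replicate 2. The change differed between diets by a log2 of 0.27 ± 0.23, which did not pass (adjusted p = 0.9998).

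Fosl2 (NM_008037, chr5:32136472-32157840) encodes Fra-2, a Fos-family protein without the strong activation domain of c-Fos. It measured 117, 85.1 and 107 CPM in HFD 24 h, against 92.0, 83.6 and 84.5 CPM in HFD 0 h. Chow libraries gave 126, 123 and 87.9 CPM at 24 h, against 82.4, 80.0 and 72.9 CPM at 0 h. The groups overlapped in HFD and not in chow. The log2 change at 24 h was 0.24 ± 0.16 in HFD (adjusted p = 0.286) and 0.51 ± 0.15 in chow (adjusted p = 0.0192), and the difference between diets, -0.27 ± 0.22, did not pass (adjusted p = 0.9998). Without chow 24 h replicate 1 or 2, or chow 0 h replicate 2 or 3, the chow call was lost (adjusted p of 0.0558 to 0.0770).

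Egr1 (NM_007913, chr18:34861207-34864956) encodes a zinc finger factor that ERK signalling switches on through serum response elements. It measured 19.4, 10.97 and 21.1 CPM in HFD 24 h, against 19.1, 15.4 and 20.7 CPM in HFD 0 h. In chow its level was 37.9, 29.7 and 20.9 CPM at 24 h, against 18.2, 17.1 and 17.7 CPM at 0 h. The HFD groups overlapped, whereas all chow libraries at 24 h lay above those at 0 h, spread over a wider range than any other group of this gene. In log2 terms the change was -0.08 ± 0.25 in HFD (adjusted p = 0.861) and 0.74 ± 0.24 in chow (adjusted p = 0.0295). The chow call was lost without chow 24 h replicate 1 (log2 fold change 0.53, adjusted p = 0.149) or chow 24 h replicate 2 (adjusted p = 0.0579), and without any of the 3 chow 0 h libraries (0.0583 to 0.0925). Summed markers of mesothelial and stromal cells ran in the same order in chow 24 h as Egr1, at 2991, 2116 and 1010 CPM, against 2408, 1301 and 760 CPM in chow 0 h. In HFD the sums were 1072, 1080 and 970 CPM at 24 h, against 678, 935 and 1378 CPM at 0 h. All 8 of these markers were detected in every group. The other 4 markers were low beside the collagen genes and Dcn, with means in chow 24 h against chow 0 h of 0.532 against 1.96 CPM for Upk3b, 0.326 against 0.916 for Msln, 0.677 against 1.73 for Krt19 and 0.262 against 0.906 for Lum. The part of such cells in the Egr1 result was not tested.

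The names of 4 libraries carry a lane 8 tag that no other library carries. These are all 3 of chow 24 h and the first of HFD 24 h. Within chow the tag and LPS cannot be told apart. The tag is also partly confounded with diet at 24 h and with the interaction. With the tag as a covariate the chow change rests on a lane effect within HFD 24 h, estimated from replicate 1 against the others. The chow changes of Fosl2 (log2 fold change 0.22, adjusted p = 0.680) and Egr1 (0.47, adjusted p = 0.587) then no longer passed, nor did that of Fos in HFD (0.34, adjusted p = 0.156). Under this covariate 3 of 9 members passed in chow, and 1509 genes in all against 3357 without it.

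**Figure D2:**
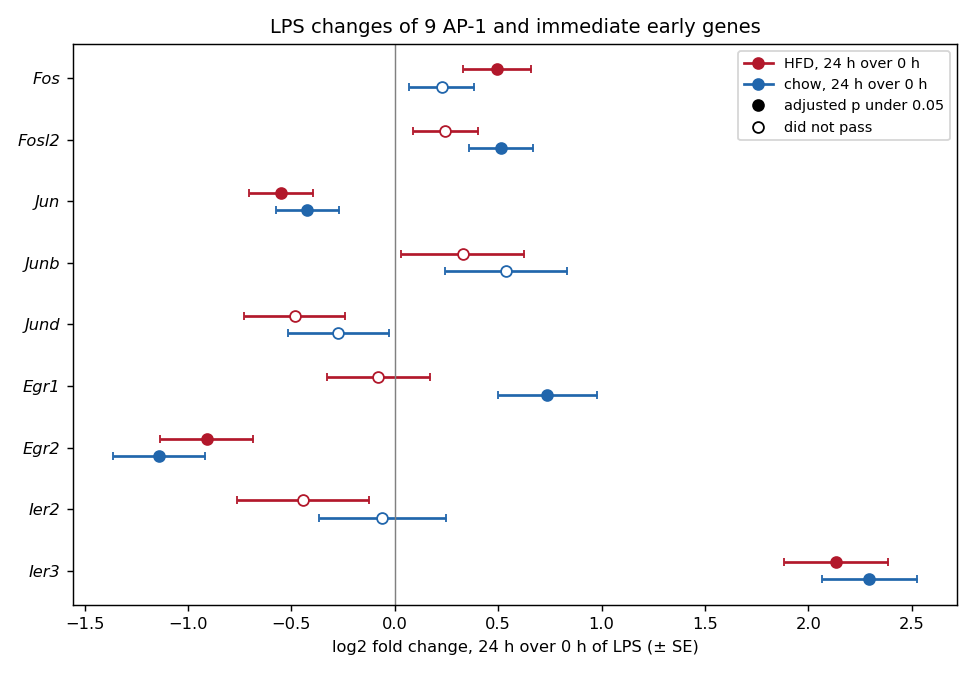
Log2 fold change at 24 h over 0 h of LPS ± SE (x axis) for the 9 tested genes (y axis), in HFD (red) and chow (blue); filled points passed at an adjusted p of 0.05 and open points did not. Ier3 stands at 2.13 and 2.30, Egr2 at -0.91 and -1.14 and Jun at -0.55 and -0.42, and the SE bars of both diets overlap for these 3.

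Junb, Jund and Ier2 did not pass in either diet, and in all 3 the third library of HFD 0 h lay above, and that of chow 24 h below, the other libraries of its group. Junb (NM_008416, chr8:84976909-84978748) encodes a Jun-family protein that often restrains c-Jun. It measured 165, 132 and 124 CPM in HFD 24 h, against 89.6, 95.6 and 156 CPM in HFD 0 h. Chow values were 160, 184 and 67.5 CPM at 24 h, against 98.6, 93.2 and 91.6 CPM at 0 h. The groups overlapped in both diets, each time through replicate 3 of one group: HFD 0 h replicate 3 lay among the 24 h libraries, and chow 24 h replicate 3 lay below all chow 0 h libraries. Its change on the log2 scale was 0.33 ± 0.30 in HFD (adjusted p = 0.480) and 0.54 ± 0.29 in chow (adjusted p = 0.212). Without chow 24 h replicate 3 alone, Junb passed in chow (log2 fold change 0.87, adjusted p = 0.00296), and without HFD 0 h replicate 3 alone its HFD change was 0.60 (adjusted p = 0.202). With both of those libraries left out, an alternative added after the data were seen, Junb passed in HFD (log2 fold change 0.62, adjusted p = 0.00269) and in chow (0.86, adjusted p = 0.000119).

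Jund (NM_001286944, chr8:70697739-70700616) encodes the Jun-family protein that resting cells usually hold at a steady level. It measured 203, 182 and 156 CPM in HFD 24 h, against 212, 200 and 350 CPM in HFD 0 h. The chow libraries had 232, 208 and 109 CPM at 24 h, against 227, 222 and 214 CPM at 0 h. Outside replicate 3 of HFD 0 h and of chow 24 h, the values of the 4 groups lay between 156 and 232 CPM. The fitted change on the log2 scale was -0.48 ± 0.25 in HFD (adjusted p = 0.176) and -0.27 ± 0.24 in chow (adjusted p = 0.469). Without HFD 0 h replicate 3 the HFD value was -0.19 (adjusted p = 0.623), and without chow 24 h replicate 3 the chow value was 0.0036 (adjusted p = 0.991). An antisense gene, Gm11175, overlaps Jund by 543 bases on the other strand, with the same limit as for Jun.

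Ier2 (NM_010499, chr8:84661331-84662852) encodes a small nuclear protein of the immediate early response. It measured 21.4, 13.9 and 12.6 CPM in HFD 24 h, against 15.8, 16.5 and 37.3 CPM in HFD 0 h. Chow levels were 17.9, 22.4 and 11.1 CPM at 24 h, against 18.5, 15.8 and 19.1 CPM at 0 h. The groups overlapped in both diets, and the highest of all 12 values, in HFD 0 h replicate 3, rests on 83 counts. Its fitted log2 fold change was -0.45 ± 0.32 in HFD (adjusted p = 0.354) and -0.06 ± 0.31 in chow (adjusted p = 0.915). Without HFD 0 h replicate 3 the HFD value was -0.022 (adjusted p = 0.970), and without chow 24 h replicate 3 the chow value was 0.19 (adjusted p = 0.720).

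Fosb (NM_008036, chr7:19302696-19310118), a Fos-family gene with low expression in most resting cells, was close to the detection limit and failed the filter on low counts. It had 0, 0 and 7 counts in HFD 24 h, against 1, 4 and 0 counts in HFD 0 h. In chow it had 4, 2 and 5 counts at 24 h, against 9, 6 and 15 counts at 0 h. The 30 counts of chow 0 h outnumbered those of the other groups. As CPM the chow 0 h libraries (0.713, 0.486 and 1.25) lay above every other library. The nearest was HFD 0 h replicate 2, at 0.445 CPM on 4 counts. In HFD 0 h replicate 3 the floor of 3 counts equals 1.27 CPM, so its 0 counts do not separate it from chow 0 h. No test was made for this gene.

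The 2 libraries that stood apart deviated most in tested members of high GC content, with Ier3 as an exception in HFD 0 h replicate 3. Junb, Jund and Ier2 have the highest GC content among the 10 members, at 62.6%, 67.2% and 60.9%, and each consists of 1 exon, as does Jun at 55.5%. In HFD 0 h replicate 3 the log2 ratio to the other 2 libraries of the group was 0.75 for Junb, 0.77 for Jund and 1.21 for Ier2. It was 0.42 for Jun, 0.27 for Egr1, 0.13 for Fos, 0.02 for Egr2 and -0.05 for Fosl2. In chow 24 h replicate 3 it was -1.35 for Junb, -1.02 for Jund and -0.86 for Ier2. It was -0.68 for Egr1, -0.50 for Fosl2, -0.44 for Fos and -0.19 for both Jun and Egr2. Ier3, at 54.4% GC, deviated by 1.12 and -0.36 in these libraries. Over 8606 genes with a mean of at least 100 counts, the log2 ratio changed by 0.35 per 10 points of GC in HFD 0 h replicate 3 and by -0.34 in chow 24 h replicate 3. The slope was 0.33 in HFD 24 h replicate 1, and between -0.24 and 0.17 in the remaining 9 libraries. In HFD 24 h replicate 1 the log2 ratio was 0.37 for Junb, 0.27 for Jund and 0.69 for Ier2. It was 0.69 for Egr2, 0.44 for Fos, 0.40 for Jun, 0.35 for Egr1, 0.30 for Fosl2 and 0.27 for Ier3. Junb and Jund thus did not stand out in that library.

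With this slope, estimated from the same libraries, as a covariate, 6 of 9 members passed in HFD and 6 of 9 in chow. Each slope was taken against the other libraries of the same group. The covariate can thus take up spread within groups and cannot correct a GC difference between groups. Calls over all 12641 genes rose as well, to 3915 in HFD and 4106 in chow, from 3116 and 3357 without the covariate. Jund (log2 fold change -0.44, adjusted p = 0.0138) and Ier2 (-0.45, adjusted p = 0.0491) then passed in HFD, and Junb (0.44, adjusted p = 0.0369) in chow. With both libraries left out, the HFD changes of Jund (-0.17, adjusted p = 0.354) and Ier2 (-0.0055, adjusted p = 0.991) were closer to 0, and in chow Jund stood at -0.013 (adjusted p = 0.955) and Ier2 at 0.17 (adjusted p = 0.595). In that fit 5 of 9 members passed in each diet, and Jun in chow did not (log2 fold change -0.37, adjusted p = 0.0572). Of all 12770 genes in it, 3375 passed in HFD and 3666 in chow. The part of GC content in the results was not tested further.

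**Figure D3:**
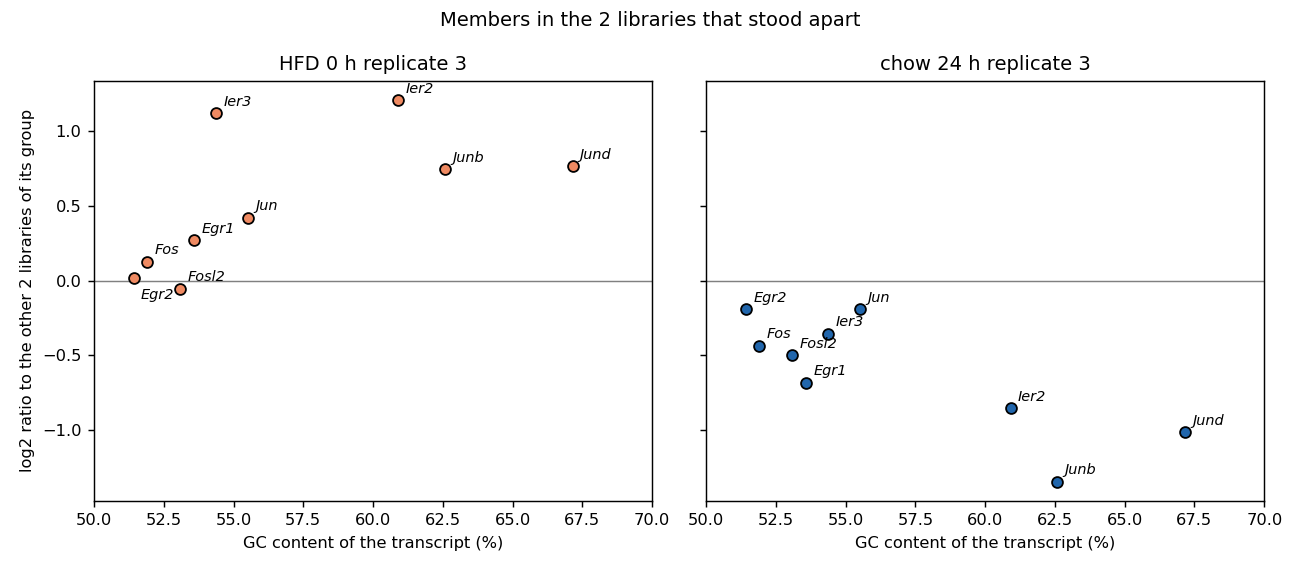
Log2 ratio of each tested gene in 1 library to the other 2 libraries of its group (y axis) against the GC content of its transcript in % (x axis), for HFD 0 h replicate 3 (left) and chow 24 h replicate 3 (right); each point is a gene. Junb, Jund and Ier2, the 3 genes above 60% GC, lie at 0.75 to 1.21 on the left and at -1.35 to -0.86 on the right.

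Levels of different genes were compared as CPM per kilobase of transcript. The length was that of a GENCODE transcript, whose start lies 1210 bases for Jund and 671 bases for Fosl2 from the RefSeq start. For these genes it may differ from the length of the transcript counted, so the rank of Jund is uncertain. The antisense overlaps of Jun and Jund limit these values as well. In chow 0 h Jund led with 132 ± 4.12 (SD, n = 3), followed by Jun with 94.5 ± 2.22, Junb with 52.2 ± 2.04, Egr2 with 38.5 ± 4.68 and Fos with 27.7 ± 0.755. Fosl2 (12.002 ± 0.755), Ier2 (11.7 ± 1.15) and Ier3 (10.5 ± 1.85) followed within 1 SD of their neighbours in that order, with Egr1 at 5.82 ± 0.185 and Fosb at 0.216 ± 0.103 last. In chow 24 h Ier3 (51.7 ± 7.21) stood above Fos (32.4 ± 5.37) and Egr2 (17.5 ± 2.34), with Jund at 110 ± 39.3, Junb at 75.9 ± 34.0 and Jun at 70.5 ± 5.31 not separated beyond their spread. In HFD 24 h the order of the leading genes was Jund (108 ± 14.2), Junb (77.7 ± 12.2), Jun (65.9 ± 11.8), Ier3 (40.2 ± 4.52) and Fos (30.6 ± 6.09). In HFD 0 h it was Jund (152 ± 50.1), Jun (96.8 ± 18.4), Junb (62.8 ± 20.2), Egr2 (33.6 ± 6.11) and Fos (21.8 ± 1.99). The 3 Jun genes thus had the highest mean levels per length in all 4 groups, although in chow 24 h Junb and Ier3 were not separated beyond their spread, and Ier3 exceeded Egr2 per length at 24 h and not at 0 h.

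No member passed the test between the diets at either time. At 0 h, 0 of 9 members passed between HFD and chow, where 0.087% of all genes passed, with adjusted p-values of 0.804 to 0.999. Fos came nearest: the HFD 0 h libraries (48.1, 41.1 and 48.6 CPM) all lay below the chow 0 h libraries (56.6, 58.7 and 59.7 CPM), with a log2 fold change of -0.35 ± 0.16 (adjusted p = 0.804). Fosl2 in HFD 0 h lay above chow 0 h in every library, by a log2 of 0.15 ± 0.16 (adjusted p = 0.973). Groups without overlap occurred in 12.2% of all genes at 0 h, 5.87% higher and 6.35% lower in HFD. At an unadjusted p under 0.05, edgeR gave 1 member, DESeq2 0 and limma-voom 0, and after adjustment DESeq2 and limma-voom gave 0 each.

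At 24 h of LPS, 0 of 9 members passed between HFD and chow, where 0.00791% of all genes passed, and adjusted p-values were 0.443 to 0.991. The groups overlapped for every member, while 12.3% of all genes did not overlap, 6.28% higher and 5.98% lower in HFD. Egr1 had the largest difference, with 19.4, 10.97 and 21.1 CPM in HFD 24 h against 37.9, 29.7 and 20.9 CPM in chow 24 h, a log2 fold change of -0.78 ± 0.24 (adjusted p = 0.443). Ier3 averaged 45.4 ± 5.12 CPM in HFD 24 h and 58.5 ± 8.16 CPM in chow 24 h (SD, n = 3 each), a log2 fold change of -0.37 ± 0.21 (adjusted p = 0.721). At an unadjusted p under 0.05, edgeR gave 1 member, DESeq2 1 and limma-voom 2, and after adjustment DESeq2 and limma-voom gave 0 each. Leaving out both libraries that stood apart moved Egr1 to -0.96 (adjusted p = 0.0731). All chow libraries at 24 h and only the first HFD library carry the lane tag, so tag and diet are partly confounded. Over all genes 993 had an unadjusted edgeR p under 0.05 for diet at 24 h, and 511 with the tag as a covariate.

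Whether the LPS change differed with diet was asked of each member by an interaction term. Of the 9 members 0 passed, and 0% of all genes passed (0 by edgeR, with 297 at an unadjusted p under 0.05, 9 by DESeq2 and 0 by limma-voom). Each member had an adjusted p of 0.9998. Egr1 had the largest difference of LPS changes, HFD minus chow, at -0.82 ± 0.35, followed by Ier2 at -0.38 ± 0.44. For Ier3 the difference was -0.16 ± 0.33, for Egr2 0.23 ± 0.31 and for Jun -0.13 ± 0.22. At an unadjusted p under 0.05, edgeR gave 1 member, DESeq2 1 and limma-voom 0, and after adjustment the other 2 tools gave 0 members each. A diet difference in LPS changes was therefore not detectable here for members that passed in 1 diet only, namely Fos, Fosl2 and Egr1.

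**Figure D4:**
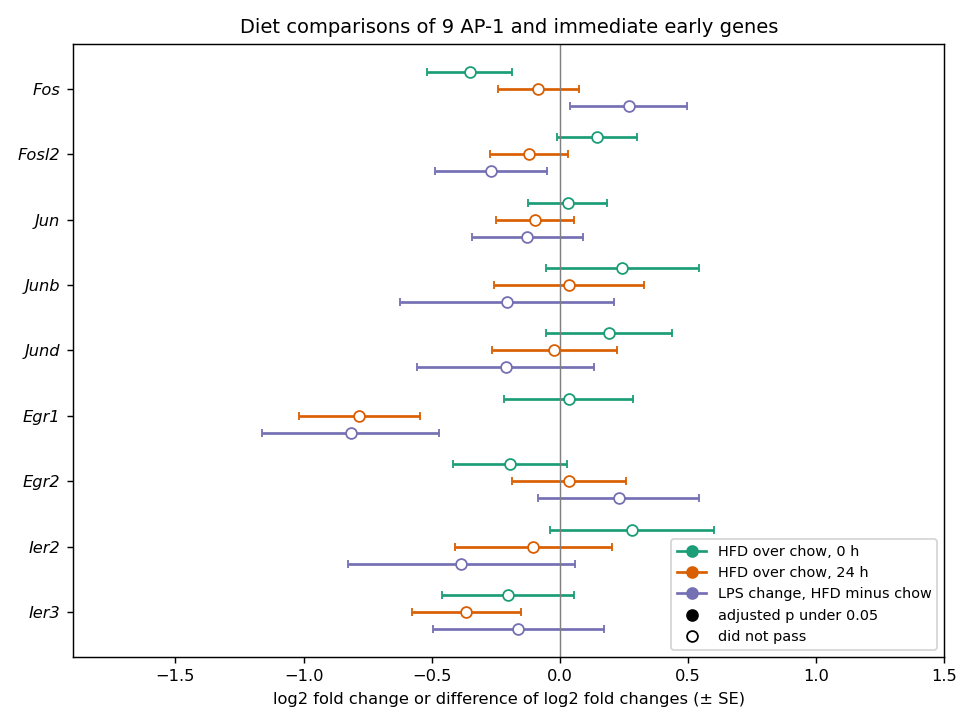
Log2 fold change of HFD over chow at 0 h and at 24 h of LPS, and the difference of LPS changes, HFD minus chow (x axis, ± SE), for the 9 tested genes (y axis); filled points would mark an adjusted p under 0.05. All points are open, and Egr1 lies farthest from 0, at -0.78 at 24 h and -0.82 for the difference of LPS changes.

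Related genes outside the 10 were followed in the same comparisons. Among 11 other AP-1 and partner bZIP factors, 4 rose and 1 fell in HFD, with a median log2 fold change of 0.58, and 5 rose and 1 fell in chow, with a median of 0.46. Over all genes 12.7% rose and 12% fell in HFD, and 13.7% rose and 12.9% fell in chow. Batf2, a BATF-family partner of Jun proteins that interferon and LPS induce, measured 59.3, 73.0 and 83.4 CPM in HFD 24 h, against 3.54, 2.89 and 4.50 CPM in HFD 0 h. The levels in chow were 79.2, 80.7 and 103 CPM at 24 h, against 3.80, 3.16 and 2.74 CPM at 0 h. All 24 h libraries lay far above the 0 h libraries, by a log2 of 4.39 ± 0.22 in HFD (adjusted p = 1.64e-10) and 4.76 ± 0.20 in chow (adjusted p = 3.43e-11).

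Mafg, a small Maf factor, rose by 0.58 ± 0.15 in HFD (adjusted p = 0.00649) and by 0.75 ± 0.14 in chow (adjusted p = 0.000577). Atf3, a stress-induced factor that dampens cytokine genes, fell by 0.75 on the log2 scale in HFD (SE 0.16, adjusted p = 0.00216) and by 0.57 in chow (SE 0.16, adjusted p = 0.0137). Jdp2, a repressor that dimerises with Jun, rose by 0.76 ± 0.21 in HFD (adjusted p = 0.0112), and its chow value was 0.46 ± 0.20 (adjusted p = 0.0956). In chow Fosl1, which encodes the Fos-family protein Fra-1, rose by 2.55 ± 0.45 (adjusted p = 0.000372) and Batf by 0.99 ± 0.22 (adjusted p = 0.00285), against 1.33 ± 0.49 (adjusted p = 0.0577) and 0.58 ± 0.23 (adjusted p = 0.0765) in HFD. For diet and the interaction 0 of the 11 passed by edgeR, DESeq2 or limma-voom, and at an unadjusted p under 0.05 edgeR gave 0 at 0 h, 1 at 24 h and 0 for the interaction.

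Among 27 other immediate early genes 26 were tested. In HFD 11 rose and 6 fell, with a median log2 fold change of 0.46, and in chow 10 rose and 4 fell, with a median of 0.46. These 17 and 14 calls of 26 stand against 24.6% of all genes in HFD and 26.6% in chow. Dusp1, a phosphatase that switches off p38 and JNK, rose by 1.04 ± 0.15 in HFD (adjusted p = 6.86e-05) and by 1.36 ± 0.15 in chow (adjusted p = 2.83e-06). Its levels were 149, 147 and 118 CPM in HFD 24 h, against 63.7, 66.0 and 73.3 CPM in HFD 0 h, and the groups did not overlap. Nfkbiz, an NF-kB cofactor that LPS induces, rose by 1.58 ± 0.28 in HFD (adjusted p = 0.000383) and by 1.81 ± 0.26 in chow (adjusted p = 4.52e-05). The circadian repressor gene Nfil3 rose by 1.54 ± 0.19 in HFD (adjusted p = 1.21e-05) and by 0.95 ± 0.18 in chow (adjusted p = 0.000612). Ier5l fell by 2.16 in HFD (SE 0.36, adjusted p = 0.000195) and by 1.32 in chow (SE 0.33, adjusted p = 0.00637). Csrnp1 rose by 1.19 ± 0.25 in HFD (adjusted p = 0.00154) and by 1.42 ± 0.24 in chow (adjusted p = 0.000191). Klf6, a zinc finger factor of inflammatory macrophages, rose by 0.64 ± 0.13 in HFD (adjusted p = 0.00174) and by 0.73 ± 0.13 in chow (adjusted p = 0.000485). For diet and the interaction 0 of the 26 passed by edgeR (2, 5 and 1 at an unadjusted p under 0.05, at 0 h, at 24 h and for the interaction), and DESeq2 gave 1, at 24 h.

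**Figure D5:**
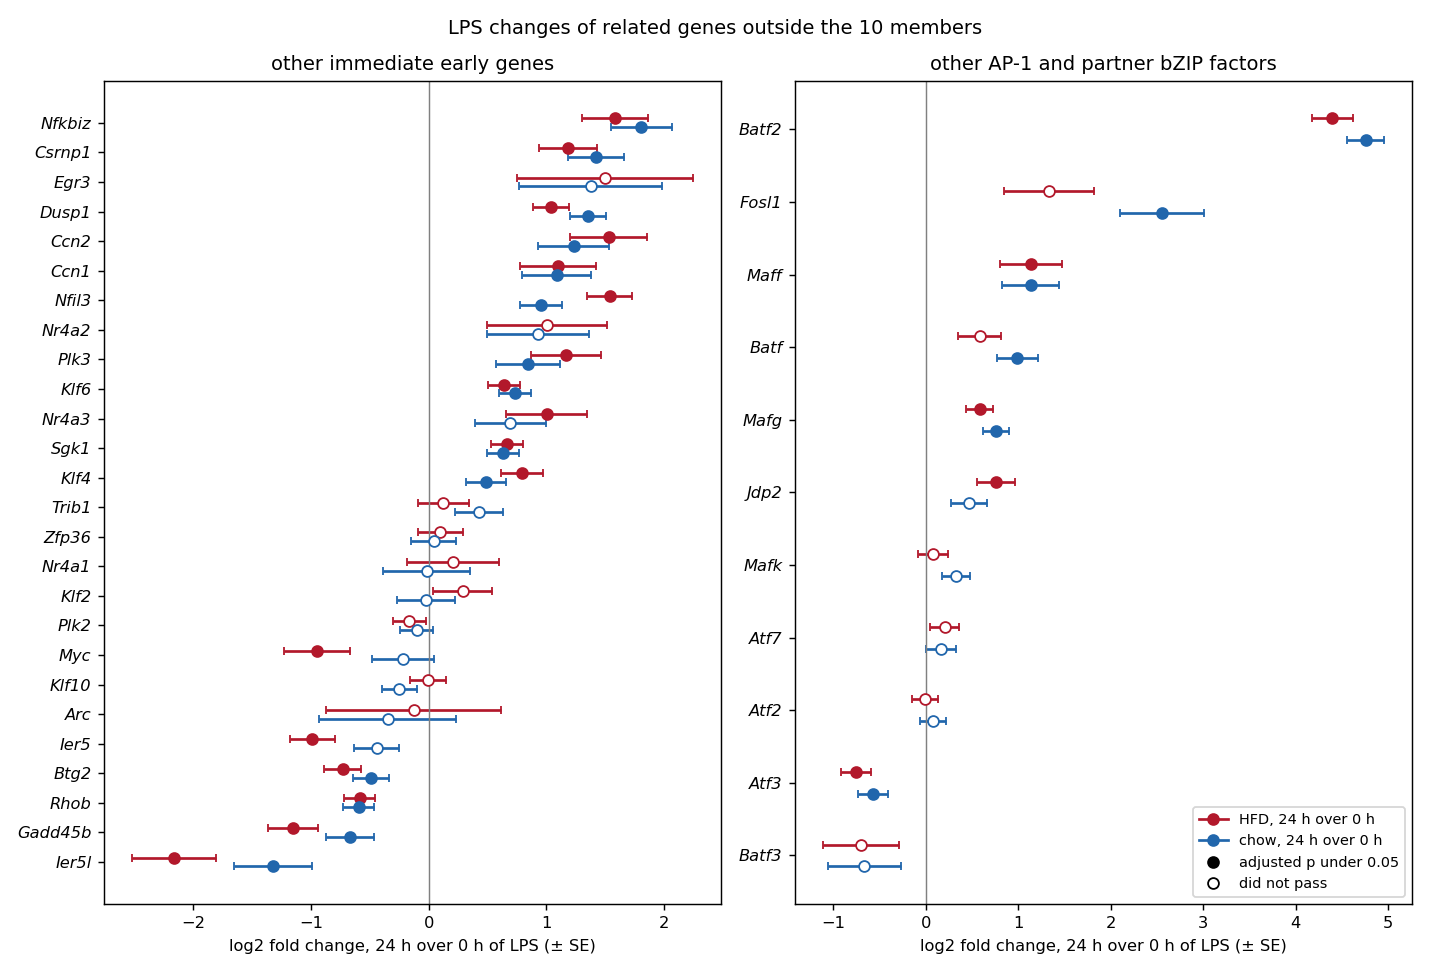
Log2 fold change at 24 h over 0 h of LPS ± SE (x axis) for other immediate early genes (left) and other AP-1 and partner bZIP factors (right), in HFD (red) and chow (blue); filled points passed at an adjusted p of 0.05. Batf2 stands apart at 4.39 in HFD and 4.76 in chow, and Nfkbiz, Csrnp1 and Dusp1 head the immediate early genes that passed in chow, while Ier5l lies lowest.

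Regulators upstream of these genes were followed as well. Of 9 genes of serum response factor, its cofactors, CREB and the NAB corepressors of Egr proteins, 2 rose and 4 fell in HFD (median log2 fold change -0.23), and 2 rose and 3 fell in chow (median -0.22), so 6 of 9 passed in HFD and 5 of 9 in chow, where 24.6% and 26.6% of all genes passed. Mrtfa and Mrtfb, actin-regulated cofactors of serum response factor, fell by 0.96 and 0.91 in HFD (SE 0.14 each, adjusted p = 3.71e-05 and 0.000116) and by 0.94 and 0.91 in chow (SE 0.13 and 0.14, adjusted p = 4.12e-05 and 0.000102). Nab1, which binds and restrains Egr1 and Egr2 proteins, rose by 1.09 ± 0.18 in HFD (adjusted p = 0.000163) and by 0.83 ± 0.17 in chow (adjusted p = 0.0015). Elk3, a ternary complex factor, rose by 0.82 ± 0.17 in HFD (adjusted p = 0.00134) and by 0.73 ± 0.16 in chow (adjusted p = 0.00262).

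Of 23 genes of the MAP kinase cascade 22 were tested. In HFD 4 rose and 4 fell (median log2 fold change 0.04), and in chow 6 rose and 4 fell (median 0.12), beside 24.6% of all genes called in HFD and 26.6% in chow. Map2k1, which encodes the ERK kinase MEK1, rose by 1.003 ± 0.16 in HFD (adjusted p = 0.000162) and by 1.37 ± 0.16 in chow (adjusted p = 5.06e-06). Mapk3, which encodes ERK1, fell by 0.55 in HFD (SE 0.15, adjusted p = 0.0129) and by 0.64 in chow (SE 0.15, adjusted p = 0.00456), and Rps6ka3, an ERK-activated kinase, fell by 0.71 in HFD (SE 0.15, adjusted p = 0.00151) and by 0.82 in chow (SE 0.15, adjusted p = 0.000422). Mapkapk2, the p38-activated kinase that stabilises cytokine mRNA, rose by 0.69 ± 0.14 in HFD (adjusted p = 0.000934) and by 0.55 ± 0.13 in chow (adjusted p = 0.00534). Rps6ka4, a kinase of histones and CREB, rose by 0.59 ± 0.17 in HFD (adjusted p = 0.018) and by 0.90 ± 0.17 in chow (adjusted p = 0.000674). For diet and the interaction 0 of these 22 and of the 9 regulators above passed by edgeR, DESeq2 or limma-voom, and at an unadjusted p under 0.05 edgeR gave 1 regulator, at 0 h, and 0 otherwise.

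Inducible heat shock genes were followed as a sign of handling stress, to which immediate early genes also respond. Of 10, 0 passed in HFD by edgeR, DESeq2 or limma-voom (median log2 fold change 0.21, and 1 at an unadjusted edgeR p under 0.05), and in chow 2 rose and 0 fell (median 0.26), where 26.6% of all genes passed. The 2 were Hspa1b, by 3.12 ± 0.62 (adjusted p = 0.00105), and Hspa1a, by 1.97 ± 0.40 (adjusted p = 0.0013), near-identical copies whose reads the counting could have split in an uncertain way. Without both libraries that stood apart, 1 of the 10 rose and 1 fell in HFD, and 3 rose in chow. In that fit 1774 of all 12770 genes rose and 1601 fell in HFD, and 1864 rose and 1802 fell in chow. Hspa1a averaged 7.24 ± 1.32 CPM in chow 24 h and 1.84 ± 0.222 CPM in chow 0 h (SD, n = 3 each). Between the diets at 24 h, 0 of the 10 passed by edgeR or limma-voom and 1 by DESeq2, and 3 had an unadjusted p under 0.05 in each tool. At 0 h and for the interaction 0 of the 10 passed by edgeR, with 0 and 1 at an unadjusted p under 0.05. At 24 h Hspa1a differed by -1.57 ± 0.39 (adjusted p = 0.292) and Hspa1b by -2.10 ± 0.56 (adjusted p = 0.325), HFD over chow, and Egr1 by -0.78. Egr1 and Fosl2 passed for LPS in chow, and the part of handling stress in these changes was not tested.

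For each tested member, the gene outside the list with the most similar profile was found by the root mean square difference of centred log2 CPM over the 12 libraries, among 8232 genes with a mean of at least 10 CPM. Jun lay nearest to Pih1d1, at 0.0785, against a median of 0.399 over all genes compared, and Fos to Psmc3 at 0.100, against 0.384. Ier3 lay nearest to Abtb2, at 0.239, against 1.16, and Egr2 to Bsn at 0.184, against 0.649. Egr1 lay nearest to Trib1, at 0.196, which is itself among the other immediate early genes. The nearest genes were P2ry2 for Fosl2 (0.0992), Dok3 for Junb (0.177), Map1s for Jund (0.125) and Hnrnpa0 for Ier2 (0.151). All 12 libraries enter these distances, so library effects such as the GC slope are part of them.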

How the data were processed

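RNA had been extracted with a Qiagen kit and made into libraries with a NuGen Ovation kit, per the labels' protocols. Per the submitters' processing notes the authors used CASAVA 1.8.2, STAR 2.5.2b and the mm10 build. The counting program, annotation and strand setting were not given in the sources used here. The deposited table holds raw counts for 35745 RefSeq identifiers in 12 columns. Names came from a RefSeq gene table (35440) or GENCODE (188), and 117 identifiers had none. Identifiers without a name held 2.33% to 12.02% of a library's total and stayed in the fit.

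Each gene was represented by its identifier with the highest mean count. Genes were filtered with filterByExpr by group (minimum count 10), scaled by TMM and tested by the robust quasi-likelihood method of edgeR 4.0.16 (R 4.3.3), as 4 group means over 12 libraries, with Benjamini-Hochberg adjustment at 0.05 over 12641 genes. Common biological variation was 17.98% (coefficient of variation). SEs were derived from the log2 fold change and the F statistic of the same test. The fit was tested on simulated counts. The 4 groups were compared as 24 h over 0 h within each diet, HFD over chow at each time, and their interaction. Pairs of libraries within a group differed beyond sampling noise (chi-square per degree of freedom 5.98 to 69.3), so all were kept.

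The members and gene lists were chosen with earlier results of these data known. All members were named in every comparison, from each list that holds no cell type markers at most the 4 genes with the smallest adjusted p in a comparison were named, and for each member the nearest gene. Promoters and transcripts came from RefSeq and GENCODE tables on GRCm38, the assembly behind mm10. Alternatives were other size factors, other filters, DESeq2 1.42.0, limma-voom (limma 3.58.1), only the groups compared, a replicate block, the lane tag, summed isoforms and each library left out. The GC slope as a covariate, and the fit without both libraries that stood apart, were added after the data were seen.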

Additional observations from a re-analysis of the deposited data

How the results depend on the processing

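The LPS calls of Ier3 and Egr2 held in both diets under all alternatives run, and those of Jun, Fos, Fosl2 and Egr1 did not. Of 216 values in HFD, 12 lost and 3 gained their call and 2 changed sign, and of 216 in chow 23 lost, 3 gained and 4 changed sign. No member passed for diet or the interaction in any alternative. Depth limited Fosb, with at most 15 counts in a library. The sign changes below concern values that had not passed, and their cause was not tested.

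The replicate block (label numbers nested in diet, or title numbers for the diet comparisons) changed no member call. The same label numbers recur at 0 h and 24 h within each diet, so shared animals are possible. Deviations of same-numbered libraries of a diet correlated by 0.0293 to 0.346, and those of different numbers by -0.307 to 0.109. Not every library correlated best with its own number, and the labels do not say what the numbers mark. The samples were therefore not treated as pairs. With the block 18 genes in all passed for diet at 0 h and 4 for the interaction, and Egr2 stood at -0.0061 for diet at 24 h.

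Over all genes, diet at 0 h gave 11 calls, against 23 with no filter, 66 with DESeq2 and 20 without both libraries that stood apart. Diet at 24 h gave 1, against 10 with no filter, 43 with DESeq2, 10 with limma-voom, 0 with only the groups compared, 0 with the lane tag, 24 with the GC slope and 15 without both libraries. The interaction gave 0, against 3 with no filter, 9 with DESeq2, 4 with the GC slope and 4 without both libraries. With the lane tag LPS in chow gave 3 members and 1509 genes.

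Without both libraries that stood apart, the LPS change was 0.010 for Egr1 in HFD and 0.17 for Ier2 in chow. Diet at 0 h was then -0.12 for Jun, -0.034 for Junb, -0.11 for Jund, -0.041 for Egr1 and -0.15 for Ier2, diet at 24 h -0.27 for Junb and -0.0079 for Egr2, and the interaction 0.063 for Ier3. With the lane tag, the LPS change of Fos in chow was -0.21, diet at 24 h was 0.19 for Fos, 0.066 for Fosl2, 0.16 for Jun, 0.15 for Jund and 0.32 for Ier2, and the interaction 0.13 for Jun, 0.030 for Junb, 0.047 for Ier2 and 0.017 for Ier3. With limma-voom, diet at 0 h was -0.0011 for Jun and -1.49e-05 for Egr1, diet at 24 h 0.045 for Jund and -0.033 for Egr2, and the interaction 0.0070 for Junb and 0.000334 for Ier3. Jund for diet at 24 h was 0.0020 with no filter and 0.046 with the GC slope.

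Leaving out each library in turn gave 2 to 4 members called for LPS in HFD and 2 to 5 in chow. Over all genes the calls were 2520 to 3373 for LPS in HFD and 2535 to 3818 in chow. They were 7 to 25 for diet at 0 h, 0 to 4 for diet at 24 h and 0 to 3 for the interaction. The LPS change ranged from -0.24 to 0.18 for Egr1 in HFD, and in chow from -0.47 to 0.0036 for Jund and from -0.29 to 0.19 for Ier2. Diet at 0 h ranged from -0.041 to 0.16 for Egr1, -0.51 to 0.10 for Ier3, -0.12 to 0.15 for Jun, -0.034 to 0.40 for Junb, -0.11 to 0.33 for Jund and -0.15 to 0.52 for Ier2. Diet at 24 h ranged from -0.28 to 0.31 for Junb, -0.19 to 0.29 for Egr2, -0.23 to 0.050 for Fos, -0.23 to 0.015 for Jun, -0.27 to 0.19 for Jund and -0.35 to 0.14 for Ier2. The interaction ranged from -0.26 to 0.029 for Jun, -0.52 to 0.073 for Junb, -0.47 to 0.090 for Jund, -0.63 to 0.045 for Ier2 and -0.46 to 0.15 for Ier3.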
